A study of Homo sapiens with 91 samples.

Results

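Tubulins are the building blocks of microtubules. Alpha- and beta-tubulin join into dimers that polymerise into the filaments of the cytoskeleton and the mitotic spindle, and gamma-tubulin sits in the ring complexes that start new filaments. Human cells carry several genes for each, the isotypes, whose proteins differ mainly in their C-terminal tails. The 10 genes described here were taken by name and not by a cutoff on their values, though earlier results of these data were known. These are the 3 alpha genes TUBA1A, TUBA1B and TUBA1C, the 6 beta genes TUBB, TUBB2A, TUBB2B, TUBB3, TUBB4B and TUBB6, and the gamma gene TUBG1. They are 10 of the 57820 genes listed in the files, and 9 of them had exonic barcodes. Those 9 also passed the filter of a mean of at least 10 CPM (exonic barcodes scaled to a common library total by TMM), which 9992 genes passed.

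RNA was measured by MATQ-seq, a total-RNA method for single cells in which random barcodes mark the copied molecules, so that barcodes rather than reads are counted. The cells were HEK293T, a human embryonic kidney line that carries the SV40 large T antigen, grown in DMEM with serum and penicillin-streptomycin, with no treatment. All libraries used here carry the name of 1 clone: 38 are single cells, and 10 are averaged aliquots, in which material of several cells was pooled and divided to the amount of a single cell. Nothing in the labels ties the aliquots to the culture or day of the cells, so each kind counts as 1 sample when mean levels are set side by side. The other 43 samples of the series were not analysed here.

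The exonic barcodes per library ranged from 128322 to 326476 in the cells and from 152542 to 275215 in the aliquots. Of 5 HEK293T markers 4 were present in every cell, with IRS4 at 935 ± 379 CPM, CKB at 583 ± 152, ZIC2 at 160.4 ± 49.2 and LIN28B at 122 ± 33.98 (SD, n = 38), whereas PAX2 had a barcode in 17 of 38 cells. In the aliquots, whose source label spells the line differently, IRS4 averaged 1146 CPM. Of the 8 markers of MCF10A, the other cell line of the series, KRT6A, KRT17 and LGALS7 were at 0 and the highest, SFN, averaged 2.44 CPM in the cells. The intronic share of all barcodes ran from 32.7% in cell 36 to 66.8% in cell 1, a spread that recurs in the results below.

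The 250 bases before the RefSeq start (GRCh38.p14) are printed 5′ to 3′ on the strand of the gene. TUBB4B, TUBB and TUBA1C are shown as the 3 of the 9 tested members with the highest rank correlation with the mitotic score below. TUBA1B is shown as the highest alpha gene. TUBB4B is at chr9:137241037-137241286 (plus strand), TUBA1C at chr12:49264832-49265081 (plus), TUBB at chr6:30720102-30720351 (plus) and TUBA1B at chr12:49131396-49131645 (minus). Capitals mark CCAAT and TTTGAA, searched on both strands. CCAAT is the box bound by NF-Y, and TTTGAA is the core of the cell cycle genes homology region found before many genes expressed in G2 and mitosis. TUBA1C has 3 starts in the table and TUBB has 2, of which the most downstream and the most upstream are shown, chosen with the matches in view.
TUBB4B promoter: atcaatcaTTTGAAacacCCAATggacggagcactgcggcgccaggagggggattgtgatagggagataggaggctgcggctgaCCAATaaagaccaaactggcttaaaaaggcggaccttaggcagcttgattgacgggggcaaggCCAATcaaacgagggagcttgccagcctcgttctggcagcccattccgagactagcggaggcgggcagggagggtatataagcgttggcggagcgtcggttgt
TUBA1C promoter: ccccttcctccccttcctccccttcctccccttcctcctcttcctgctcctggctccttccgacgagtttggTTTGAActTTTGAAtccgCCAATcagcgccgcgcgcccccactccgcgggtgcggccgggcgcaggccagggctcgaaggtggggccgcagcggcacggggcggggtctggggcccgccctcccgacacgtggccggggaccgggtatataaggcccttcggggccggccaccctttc
TUBB promoter: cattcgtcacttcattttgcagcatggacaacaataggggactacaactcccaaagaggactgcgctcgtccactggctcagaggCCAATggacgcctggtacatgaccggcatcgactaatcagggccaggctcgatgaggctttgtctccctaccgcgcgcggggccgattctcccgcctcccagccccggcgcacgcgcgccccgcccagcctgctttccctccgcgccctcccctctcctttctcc
TUBA1B promoter: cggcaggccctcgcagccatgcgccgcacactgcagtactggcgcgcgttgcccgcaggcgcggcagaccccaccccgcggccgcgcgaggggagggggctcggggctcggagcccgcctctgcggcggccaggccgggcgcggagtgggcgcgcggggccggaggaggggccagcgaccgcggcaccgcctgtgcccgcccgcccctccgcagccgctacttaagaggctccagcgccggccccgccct

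The window of TUBB4B holds CCAAT 3 times and TTTGAA once, the latter 242 bases before the start. Among all 35097 RefSeq windows of the same length, 31.997% hold CCAAT, 13.3% hold TTTGAA and 4.68% hold both. In 2.92% there are 3 or more CCAAT, and 0.37% hold that many with TTTGAA. Of the 78 windows of the mitotic list described below, 69.2% hold CCAAT, 44.9% hold TTTGAA and 37.2% hold both. There 12.8% hold 3 or more CCAAT with TTTGAA. That last combination repeats what the TUBB4B window itself holds, so its shares are no test of that gene. The TUBA1C window holds TTTGAA at 178 and at 170 bases before the start and CCAAT at 160. The TUBB window holds CCAAT once, and its other start has neither motif. The TUBA1B window holds neither and is 81.2% G and C, against 56.8% for TUBB4B. Among the remaining members, TUBA1A, TUBB2B, TUBB3, TUBB6 and TUBG1 have CCAAT or its reverse complement in a window and TUBB2A has none, and TTTGAA was found only in TUBB4B and TUBA1C among the 10 genes. The variant TTCGAA, in 1.19% of all windows, was found before TUBB3 alone among the 10 genes. A match is a description of the letters, and no binding was measured.

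Isotype use was uneven. TUBB, the most widely expressed beta-tubulin, was the highest tubulin RNA, also per kilobase as given below on both length scales, and it ranged in the cells from 632 CPM in cell 1 through a median of 1023 to 1451 in cell 34. Over the aliquots TUBB ran from 889 through 1067 to 1253 CPM. The means were 1030 ± 180 CPM (SD, n = 38) and 1052 ± 106 (n = 10), and the ranges overlapped, with 5 cells above and 7 below every aliquot.

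TUBB4B, a broadly expressed beta isotype also used in cilia, ranged from 228 CPM in cell 36 through 439 to 765 in cell 29, and in the aliquots from 395 through 426 to 566. It averaged 438 ± 115 CPM in the cells and 454 ± 56.5 in the aliquots. Here 5 cells lay above and 13 below all aliquots, so that the lower side held most of the cells outside the aliquots' range.

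TUBA1B, the main alpha gene of these cells, ranged from 140.5 CPM in cell 1 through 422 to 642 in cell 34, and from 242 through 329 to 407 in the aliquots. The mean was 411 ± 107 CPM in the cells and 330.4 ± 49.9 in the aliquots, with 20 cells above and 3 below all aliquots. The cell mean was 1.24 times the aliquot mean, a ratio between 2 samples with no replicate check. TUBG1, the gamma-tubulin gene, ranged from 84.3 through 210.03 to 341 CPM in the cells and from 149 through 213 to 253 in the aliquots, with means of 211 ± 60.9 and 209 ± 31.6.

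The remaining genes were lower. TUBB6, a beta isotype with a divergent tail, ran from 30.2 CPM in cell 9 through 73.5 to 224 in cell 36, the cell in which TUBB4B was lowest. TUBA1A, an alpha gene prominent in developing neurons, ran from 6.38 in cell 1 through 67.5 to 117 CPM in cell 36. TUBA1C, a further alpha gene, ran from 0 in cell 36 through 41.9 to 123 CPM in cell 17. Cell 36 was therefore at the upper end for TUBB6 and TUBA1A and at the lower end for TUBB4B and TUBA1C.

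TUBB2B and TUBB2A, neighbouring beta genes known for their part in neurons, were at 0 in 1 and 2 cells. TUBB2B had a median of 36.3 and a highest value of 122 CPM in the cells, and TUBB2A a median of 27.4 and a highest value of 68.6. Both were highest in cell 33 and 0 in cell 1. TUBB2A averaged 30.2 ± 17.03 CPM in the cells and 18.8 ± 5.98 in the aliquots, with 18 cells above and 6 below all aliquots. Median barcodes per cell were 6.0 for TUBB2A, 9.0 for TUBB2B and 10.5 for TUBA1C, against 220.5 for TUBB, and counting error at the mean depth of each gene gives a CV of 36.97%, 29.8%, 29.7% and 6.46%, beside observed CVs of 56.3%, 60.9%, 54.4% and 17.4%.

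TUBB3, the beta isotype used as a marker of neurons, was listed at 0 exonic barcodes in all 38 cells and all 10 aliquots. With 8782994 exonic barcodes over the cells, a count of 0 allows up to 0.342 CPM before scaling, for counting error only. It had 12 intronic barcodes over the 48 libraries. In the GENCODE annotation the readthrough gene AC092143.1, also at 0, covers 35.8% of the exonic bases of TUBB3 on the same strand and shares 89.4% of the 50-base windows of its transcript. No source used here says how reads in that overlap were assigned, and its part in the zeros was not tested.

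**Figure D1:**
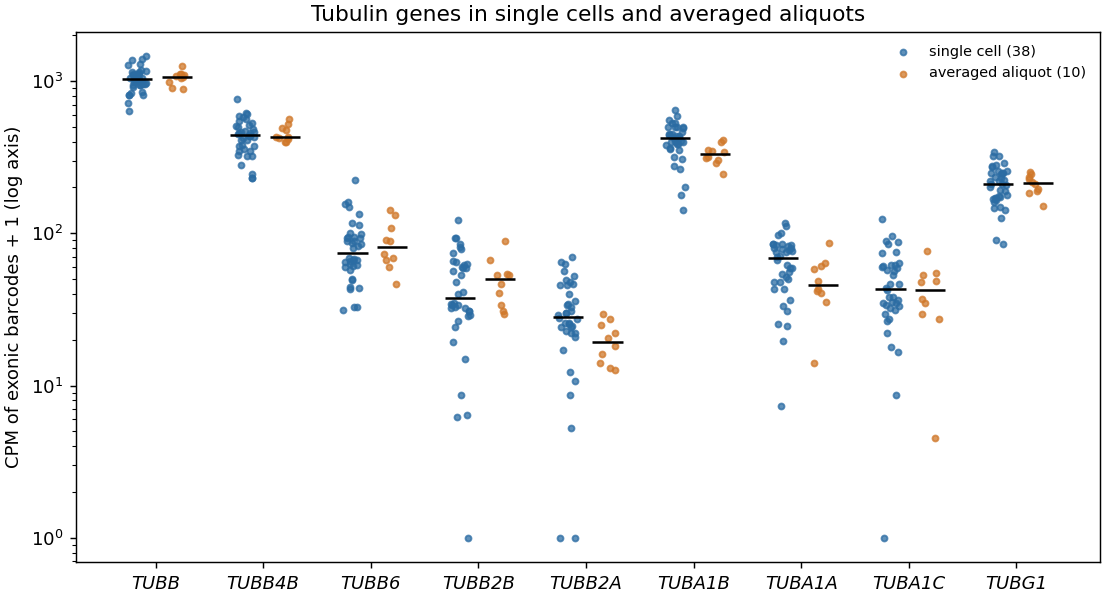
CPM of exonic barcodes plus 1 on a log axis for the 9 tubulin genes with barcodes, with 1 point per library (38 single cells, 10 averaged aliquots) and a bar at each median. TUBB is highest in both kinds, with medians of 1023 and 1067 CPM, and TUBB4B and TUBA1B follow. In the cells the genes with the lowest medians spread most.

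Between genes, levels were compared per kilobase of annotated exon. On that scale the order of the cell means was TUBB at 307 ± 53.5 CPM per kilobase (SD, n = 38), TUBB4B at 207 ± 54.6, TUBA1B at 115 ± 29.98, TUBG1 at 87.5 ± 25.3, TUBB2B at 20.7 ± 12.6, TUBB6 at 20.02 ± 9.80, TUBA1A at 18.4 ± 7.53, TUBB2A at 17.5 ± 9.86 and TUBA1C at 10.3 ± 5.59. TUBB exceeded TUBB4B in 38 of 38 cells, TUBB4B exceeded TUBA1B in 37 of 38 and TUBG1 exceeded TUBB2B in 38 of 38. TUBA1B exceeded TUBG1 in 31 of 38 cells, but their mean difference was smaller than its SD, as it was for all neighbours from TUBB2B down. The order depends on the length used. Annotated exons include retained introns for TUBA1B and TUBB4B, neither of which had an intronic barcode. Per kilobase of the transcript with the longest open reading frame, a scale added after the data were seen, the order was TUBB at 386 ± 67.3, TUBB4B at 267 ± 70.4, TUBA1B at 252 ± 65.9, TUBG1 at 131 ± 37.8, TUBB6 at 39.9 ± 19.6, TUBA1A at 32.95 ± 13.4, TUBA1C at 28.1 ± 15.3, TUBB2B at 22.5 ± 13.7 and TUBB2A at 18.96 ± 10.7. On that scale TUBB4B exceeded TUBA1B in only 21 of 38 cells, TUBA1B exceeded TUBG1 in 38 of 38, and TUBA1C stood above TUBB2B and TUBB2A.

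Taken as a share of the barcodes of the 6 beta genes, TUBB supplied 63.5% ± 4.30 in the cells and 63.3% ± 3.72 in the aliquots. TUBB4B supplied 26.8% ± 4.86 and 27.4% ± 3.61, TUBB6 5.10% ± 2.39 and 5.19% ± 1.75, TUBB2B 2.73% ± 1.52 and 2.95% ± 1.09, and TUBB2A 1.83% ± 0.99 and 1.13% ± 0.35 (SD, n = 38 and 10). The mean shares of the 3 larger isotypes in cells and aliquots lay within 1 SD of each other. By length the picture moved toward TUBB4B, which made up 36.05% ± 5.84 of the beta level per kilobase in the cells beside 53.9% ± 4.78 for TUBB. By reads it moved the other way, to 75.5% for TUBB and 18.6% for TUBB4B, because TUBB had 3.84 reads per barcode and TUBB4B 2.29.

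The TUBB4B share of beta barcodes varied between cells. It was lowest in cell 36, where 47 of 309 beta barcodes were TUBB4B (15.2%, Wilson 95% interval 11.6% to 19.6%), had a median of 27.4% and was highest in cell 29, where 180 of 495 were (36.4%, 32.2% to 40.7%). These intervals cover counting error only and do not overlap. The 2 cells were picked as the extremes of 38, so the lack of overlap is no test of variation between cells. Over the aliquots the share ran from 23.9% to 36.3%. The SD of the TUBB4B share was 2.03 times the binomial SD in the cells and 1.398 times in the aliquots. For the TUBB6 share the same ratios were 2.00 and 1.35, and for TUBB 1.65 and 1.34. Cell 36 also had the highest TUBB6 share, 14.9%.

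Within the alpha genes TUBA1B supplied 78.9% ± 4.52 of the barcodes in the cells and 78.8% ± 6.80 in the aliquots. TUBA1A supplied 12.2% ± 4.75 and 11.7% ± 5.23, and TUBA1C 8.98% ± 3.78 and 9.46% ± 4.52. The SD of the TUBA1B share was 1.11 times the binomial SD in the cells and 1.44 times in the aliquots. The 3 alpha and 6 beta genes together made up 0.214% ± 0.038 of exonic barcodes in the cells and 0.209% ± 0.0143 in the aliquots. The ratio of beta to alpha barcodes was 3.28 ± 0.76 in the cells and 4.01 ± 0.487 in the aliquots, and it reached 5.70 in cell 1, the cell with the fewest alpha barcodes.

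Sequence likeness limits how far some isotypes can be told apart. TUBB2A and TUBB2B share 98.1% of aligned coding bases, and 60.3% of the 50-base windows of the TUBB2A transcript also occur in TUBB2B. TUBA1B shares 97.2% of coding bases with TUBA1A and 97.3% with TUBA1C, and 62.7% of its windows occur in another gene. TUBB shares 16.1% of its windows with the pseudogene TUBBP1, which had 50.2 CPM in the cells. The windows of TUBB4B and TUBB6 are more their own, with 9.89% and 0.993% found elsewhere. No source used here gives the read length or the handling of reads that match several genes, so the split among TUBA1A, TUBA1B and TUBA1C and between TUBB2A and TUBB2B is uncertain.

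Opposite-strand genes overlap the exons of several members, among them AC011603.2 over 36.6% of the exonic bases of TUBA1B, AFG3L2 over 20.3% of TUBB6, AL662797.1 over 16.02% of TUBB, and TUBA1A and TUBA1C over each other. Whether counting used strand is not given, and reads of such partners could then not be told apart.

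The other tubulin genes are given in CPM, which is not scaled for length. The beta gene TUBB4A averaged 30.6 CPM in the cells, the second gamma gene TUBG2 20.3, and the delta and epsilon genes TUBD1 and TUBE1, both tied to centrioles, 40.3 and 35.5. TUBB1, the isotype of platelets, averaged 4.97 CPM, TUBA8 2.87 and TUBA4A 2.18. The pseudogenes TUBBP5 and TUBG1P averaged 13.5 and 1.04. TUBBP1 averaged 30.5 CPM per kilobase of annotated exon, with the shared sequence noted above.

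The design sets the cells against the aliquots to ask which RNAs vary between cells beyond the scatter of the method. The spread was the mean absolute deviation of log2 CPM from the group median, compared with limma over 9992 genes with Benjamini-Hochberg adjustment. TUBB4B had a spread of 0.30 in the cells and 0.14 in the aliquots, a ratio of 2.21 and the largest of the 9. The difference of 0.16 (SE 0.08) had an unadjusted p of 0.0438 and an adjusted p of 0.677 by limma. TUBB2B had a ratio of 1.98, TUBB2A 1.95, TUBG1 1.92, TUBB 1.74 and TUBA1B 1.71, while TUBB6, TUBA1A and TUBA1C were at 1.21, 1.15 and 1.05.

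None of the 9 tubulin genes was called at an adjusted p under 0.05, and across all genes 0% were called for a larger spread in cells and 0.03% for a larger spread in aliquots. The unadjusted p from limma was under 0.05 for 1 tubulin gene, against 3.67% of all genes. A negative-binomial test of the 2 dispersions called none of the 9 either, with 0.23% of all genes called, and had an unadjusted p under 0.05 for 4, TUBB4B (0.0161), TUBB2B (0.0385), TUBG1 (0.0427) and TUBA1B (0.0456), against 6.86% of all genes. All 9 ratios were above 1, against 54.9% of genes, with a median of 1.74 against 1.04 over the genes outside the mitotic list. In simulated data limma called 0 of 100 genes given 100% added variation and the negative-binomial test 45. After adjustment over 9992 genes limma thus did not call a difference of that size, though its unadjusted p was under 0.05 for 96 of the 100. The negative-binomial test had an unadjusted p under 0.05 for 99. At 50% added variation limma called 0 of 100 and the negative-binomial test 2, so after adjustment both mostly missed smaller differences. There the unadjusted p was under 0.05 for 31 of 100 by limma and for 52 by the negative-binomial test.

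The relation to mitosis was described with a score that averages the z-scored log2 CPM of 70 mitotic genes, none of them a tubulin. The cells are 1 sample of 1 clone, so rank correlations over the 38 cells are given as descriptions without a p, and the points share the library that both measures came from. TUBB4B had the highest value of the 9 genes, with a Spearman rho of 0.503 and a Pearson r of 0.497. Only 0.544% of the tested genes outside the mitotic list reached that rho, or 0.802% of those with at least 50 CPM. Without cells 15 and 32, the 2 farthest from the median score, rho was 0.497 and r 0.531, and without the cells of highest and lowest score, 30 and 15, rho was 0.502.

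At the level of cells, cell 29, with a score of 1.00, had the highest TUBB4B, and cell 30, with the highest score of 1.26, had 590 CPM. Cell 36, with a score of −0.63, had the lowest TUBB4B. Cell 15, with the lowest score of −1.81, was an exception at 452 CPM, above the median of the cells.

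TUBB had a rho of 0.364, which 3.53% of genes reached, and TUBA1C one of 0.268, which 9.64% reached. TUBG1 was at 0.15, TUBA1B at 0.119, TUBB2B at 0.015 and TUBB2A at 0.00186. TUBA1A and TUBB6 had negative values of −0.174 and −0.256. Of the other protein-coding tubulin genes tested, TUBE1 had 0.37, above TUBB, and TUBD1 0.289, above TUBA1C. TUBB4A had 0.0973 and TUBG2 −0.0647. At a rho of 0.4 or above there was thus 1 of 9 tubulin genes, TUBB4B, against 2.2% of genes outside the mitotic list and 2.88% of those with at least 50 CPM. At −0.4 or below there was none, against 1.51% of genes. Without cells 15 and 32 the rho of TUBB was 0.287 and its r 0.229, and without cells 30 and 15 its rho was 0.294. In the same settings the rho of TUBA1C was 0.142 and 0.146.

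Over the 10 aliquots, scored in the same way, TUBB4B had a rho of −0.818 with the score, and TUBB −0.297. A rho at or below −0.4 over the aliquots was seen for 12.5% of genes, and 0.353% were at or below that of TUBB4B. The aliquots were made from pooled material, and what moves with their score was not tested.

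**Figure D2:**
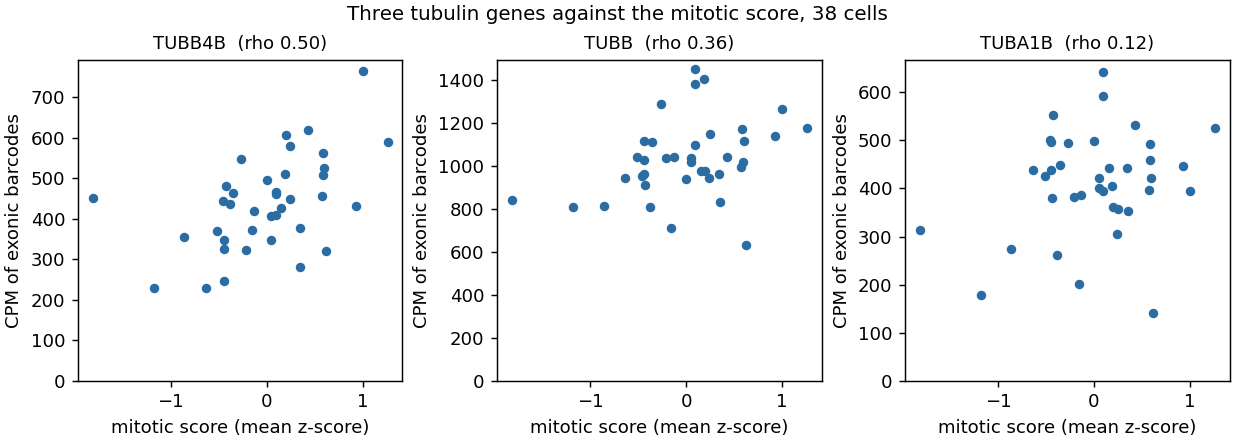
CPM of exonic barcodes of TUBB4B, TUBB and TUBA1B against the mitotic score (mean z-score), with 1 point per cell and 38 cells. TUBB4B climbs with the score (rho 0.503), TUBB less so (0.364), and TUBA1B shows little relation (0.119).

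**Figure D3:**
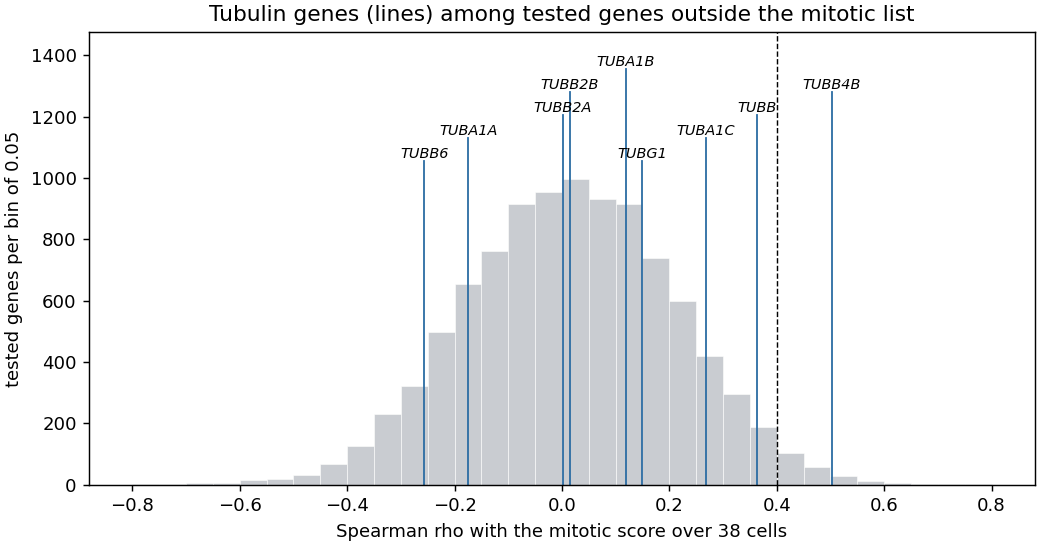
Number of tested genes outside the mitotic list in bins of the Spearman rho with the mitotic score over 38 cells, with a line for each of the 9 tubulin genes and a dashed line at 0.4. TUBB4B is the tubulin gene beyond the dashed line, TUBB (0.364) and TUBA1C (0.268) come next, and TUBB6 and TUBA1A lie left of 0.

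Gene by gene the pattern was similar, but the score averages these same 70 genes. Of the 70, 57 had a rho of at least 0.4 with the score, so the counts that follow are no separate support. TUBB4B had a rho of at least 0.4 with 21 of the 70 mitotic genes, against 1.46% of the other tested genes, and a median of 0.326 over the 70. It was positive with 66 of 70, against 51.5% of the other genes. TUBB was positive with 69 of 70, against 53.7%, with a median of 0.209 and 10 at 0.4 or above, and TUBA1C had a median of 0.212 with 10 at 0.4 or above, against 1.92% and 3.04% of the other genes. TUBB6 was positive with 15 of 70 and TUBA1A with 25, against 52.9% and 52.7%. The 3 highest of the 70 for TUBB4B, chosen after their values were seen, were BIRC5, a subunit of the chromosomal passenger complex (0.554), RANGAP1, the activator of the Ran GTPase (0.547), and CDC20, an activator of the anaphase-promoting complex (0.543).

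The 5 mitotic genes with the highest mean rho to the 9 tubulins were JPT1 (0.446), CCNA2 (0.328), MAD2L1 (0.303), NEK2 (0.231) and CCNB1 (0.225). All but CCNB1 followed the mitotic score less than most of the list. Their rho with the score was 0.302, 0.342, 0.206 and 0.194, and that of CCNB1 0.682, against a median of 0.622 over the list. JPT1, a microtubule-linked protein, had 0.628 with TUBA1B, 0.499 with TUBG1 and 0.327 with TUBB4B. CCNA2, the cyclin of S and G2, had 0.554 with TUBB2B and 0.181 with TUBB4B. MAD2L1, a spindle checkpoint protein, had 0.525 with TUBB and 0.0879 with TUBB4B. NEK2 is a centrosomal kinase, and its highest value was 0.46 with TUBB2A. CCNB1, the mitotic cyclin, had 0.431 with TUBB4B, its highest among the tubulins.

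A second score over 41 genes of G1 and S phase ran opposite to the mitotic score (rho −0.736). With it TUBB4B had a rho of −0.389, whereas TUBB2B had 0.397 and TUBB6 0.385. The TUBB4B share of beta barcodes had a rho of 0.41 with the mitotic score and −0.562 with the G1 and S score. TUBB4B barcodes per 100 TUBB barcodes, with a median of 43.0 and a range from 24.2 in cell 36 to 62.4 in cell 22, had 0.36 and −0.492. The TUBB6 share had −0.347 with the mitotic score, and the TUBA1A share of alpha barcodes −0.423. Since shares of 1 family sum to 100%, these values are not independent of each other.

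The summed beta level had a rho of 0.508 with the mitotic score and the summed alpha level 0.116. The mitotic score had a rho of 0.304 with the total exonic barcodes of a cell and −0.112 with its intronic share. TUBB4B itself had −0.00274 with the total.

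The tubulin genes also varied together. All 36 pairs among the 9 genes had a rho above 0 over the cells, against 50.7% of all pairs of tested genes, with a median of 0.382 against 0.003. Of the 36, 16 were at 0.4 or above, against 1.3% of all pairs and 1.88% of pairs of genes with at least 50 CPM. The highest were TUBB2A with TUBB2B (0.669), TUBA1B with TUBA1C (0.623), TUBA1B with TUBB (0.549) and TUBB with TUBB4B (0.522). The former 2 pairs are also those that share sequence, and the part of shared reads in them was not tested. TUBB4B and TUBB6 had the lowest value, 0.0104. The summed alpha and beta levels had a rho of 0.591 and an r of 0.69. Over the 10 aliquots the median of the 36 pairs was −0.0242, with 4 at 0.4 or above, and alpha and beta had 0.309. The share over all pairs was not computed for the aliquots, so that count has no background beside it.

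The intronic share moved with these levels. All 9 genes had a negative rho with it, from −0.364 for TUBA1C to −0.58 for TUBB2B and a median of −0.525, against −0.0148 over all genes. At −0.4 or below were 6 of 9, against 7.03% of all genes. The relation was weaker in the other protein-coding tubulin genes tested, with TUBB4A at −0.0629, TUBG2 at −0.161, TUBD1 at −0.0371 and TUBE1 at −0.0644. The pseudogene TUBBP1 had −0.486 and TUBBP5 −0.129. With the intronic share taken out of both genes, an alternative added after the data were seen, the median over the 36 pairs was 0.163, with 25 above 0 and 3 at 0.4 or above: TUBA1B with TUBA1C (0.543), TUBB2A with TUBB2B (0.516) and TUBB with TUBB4B (0.411). Alpha and beta were then at 0.366. Leaving out cells 1 and 36, the extremes of the intronic share, the 36 pairs had a median of 0.339, with 11 at 0.4 or above. For neither alternative was the share over all pairs computed.

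The aliquots spanned a narrow range of intronic share, from 54.9% to 60.4%, and within it the rho with the beta level was 0.358 over the 10. Cell 1, at 66.8%, was the lowest cell for TUBB, TUBA1B and TUBA1A and had no barcode of TUBB2A or TUBB2B. Whether the intronic share stands for nuclear against cytoplasmic RNA, for RNA quality or for capture was not tested.

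**Figure D4:**
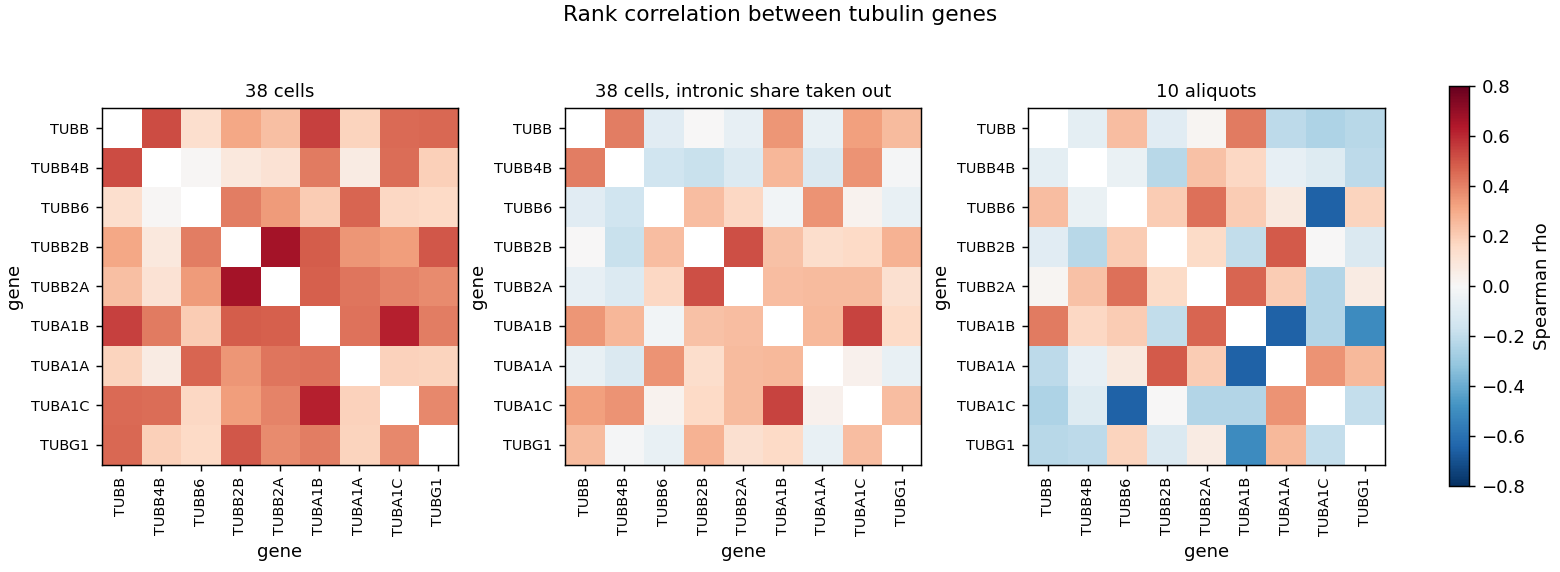
Spearman rho between pairs of the 9 tubulin genes over the 38 cells, over the same cells with the intronic share taken out, and over the 10 aliquots, on a colour scale from −0.8 (blue) to 0.8 (red). All pairs are above 0 in the cells, fewer after the intronic share is taken out, and the aliquots show both signs.

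**Figure D5:**
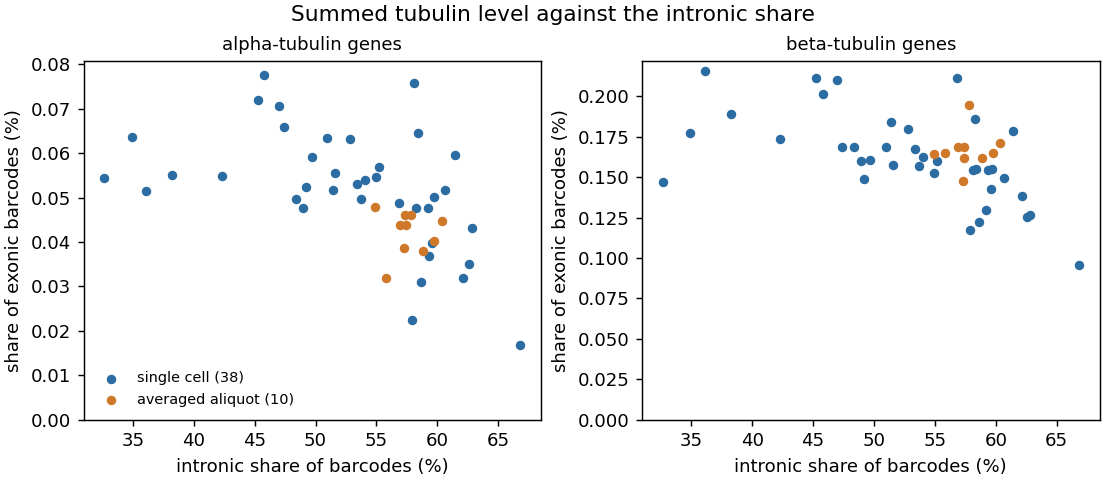
Summed alpha and beta barcodes as a percentage of exonic barcodes against the intronic share of barcodes (%), with 1 point per library. In the 38 cells both sums are negatively related to the share, with rho of −0.569 and −0.626, and the 10 aliquots occupy a narrow range.

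For the 6 tubulin genes with at least 50 CPM, the 3 most similar of 5114 candidate genes were named by Spearman rho over the 38 cells. For TUBB4B these were AHCYL1 (0.588), DNAJB1, a heat shock co-chaperone (0.571), and GOT1, an aspartate aminotransferase (0.566). For TUBB they were FZR1, the late-mitotic activator of the anaphase-promoting complex (0.652), NUP188, a nucleoporin (0.612), and TMEM97 (0.58). TUBA1B was closest to AL662797.1 (0.739), the gene antisense to TUBB, then to SMARCA4, a chromatin remodeller (0.712), and RPLP0, a ribosomal protein (0.695). TUBG1 was closest to HIPK1 (0.664), UQCR11 (0.664) and SOD1 (0.643). TUBB6 was closest to PFKP, a phosphofructokinase (0.57), RING1 (0.545) and NIPSNAP1 (0.543), and TUBA1A to RPSA (0.60), NUDC (0.596) and ANAPC11 (0.592). None of the 18 was in the mitotic list. Of the 5170 tested genes with at least 50 CPM, 5111 are outside that list, so this lies near the background. Over the 10 aliquots the 18 values ran from −0.697 (TUBG1 with HIPK1) to 0.467 (TUBB with TMEM97), with a median of −0.0364 and 5 above 0. With the intronic share taken out of both genes, an alternative added after the data were seen, they ran from 0.422 to 0.661 over the cells. As the highest of 5114 candidates each, these values are a ranking with no test.

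Of 64 tested genes in 4 lists of genes that handle tubulin, 1 had a rho of 0.4 or above with the mitotic score and 2 one of −0.4 or below, against 2.2% and 1.51% of genes outside the mitotic list, so the counts lie near the background. None of the 8 tested genes of the gamma-tubulin ring complex reached a rho of 0.4 in size, and the highest were TUBGCP3 (0.326), TUBGCP6 (0.31) and TUBGCP2 (0.21), with MZT2A lowest (−0.145). None of 20 folding genes, the CCT chaperonin, prefoldin and tubulin cofactors, did, with TBCC at 0.314, TBCEL at 0.231, ARL2 at 0.222 and PFDN6 at −0.161. None of 14 tubulin-modifying enzymes did, with AGTPBP1, a deglutamylase, at 0.207, HDAC6, a deacetylase, at 0.196, TTLL12 at 0.164 and VASH2, a detyrosinase, at −0.265. Of 22 microtubule-associated genes MAP1S was above 0.4 (0.425), and MAP1B (−0.433) and MAPRE3 (−0.424) were below −0.4, beside MAPRE1 at 0.27 and CLASP2 at 0.227. The medians of these 4 lists were 0.135, 0.0506, −0.0348 and −0.0614, against 0.0183 over the genes outside the mitotic list. The limma test called no gene of the 4 lists for spread. Of all genes it called 0% for a larger spread in cells, so this outcome says nothing about the lists.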

How the data were processed

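The libraries used were 38 single cells and 10 averaged aliquots made by MATQ-seq from HEK293T clone 1. Each file holds 4 columns of counts the authors deposited per Ensembl gene: exonic and intronic reads and barcodes. Per the submitters' processing notes, reads were mapped to hg19 with TopHat and counted with HTSeq, versions not given. Neither the read length nor the use of strand is given in the sources used here.

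Exonic barcode counts were scaled by TMM in edgeR 4.0.16 (R 4.3.3) to CPM and taken as log2 with a prior count of 1. Genes needed a mean of 10 CPM. Symbols came from GENCODE annotation by gene ID (52338 matched). Spread was compared with limma 3.58.1 on scaled absolute deviations, two-sided, with Benjamini-Hochberg adjustment over 9992 genes, and alternatively with a negative-binomial dispersion test through edgeR. The limma and negative-binomial tests were tested on simulated data. The p-values measure only the spread between these libraries, which are cells or aliquots of 1 clone. Correlations over cells were computed in Python 3.11.15 with scipy 1.17.1 and have no p. The mitotic list had 71 genes and the G1 and S list 43, of which 70 and 41 were tested.

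Levels were read from barcodes, which limits duplication by amplification, with 3.23 ± 0.565 reads per barcode in the cells (SD, n = 38) and 2.90 ± 0.221 in the aliquots (n = 10). Alternatives changed the size factors, filter, measure, depth, prior count, coefficient, length and libraries. The tubulin genes and the other gene lists were chosen with earlier results of these data known. The genes named were all 10 tubulins, other tubulin genes with at least 1 CPM, the 3 genes most like each tubulin with at least 50 CPM, the 5 mitotic genes closest to the tubulins, and the 3 highest and 1 lowest of each list of tubulin-handling genes. Outside that rule BIRC5, RANGAP1, CDC20 and MAPRE3 were named after their values were seen. Library pairs differed beyond sampling noise, with a chi-square per degree of freedom of at least 2.16 between cells and 2.09 between aliquots, so none was counted as a duplicate.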

Additional observations from a re-analysis of the deposited data

Results flagged for a closer look

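The TUBB4B share of beta barcodes was 36.3% in its highest aliquot, number 3, where 149 of 411 beta barcodes were TUBB4B (Wilson 95% interval 31.8% to 41.0%), against 29.96% in the next aliquot. The gap made up 0.512 of the range of the 10 aliquots, above the 95% limit of Dixon's test. The summed beta genes took 0.194% of exonic barcodes in their highest aliquot, against 0.171% in the next, a gap of 0.493 of the range. Of the 19 sets of 10 aliquots examined in this way, these 2 stood out, and chance gives about 1 in 20.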

How the results depend on the processing

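No tubulin gene was called for a larger spread in cells under any of the 10 alternatives run, and TUBB4B's adjusted p ranged from 0.405 to 0.89 by limma or the negative-binomial test. The spread ratio of TUBA1C was below 1 in 3 of its settings and that of TUBA1A and TUBB6 in 1 each. The rho of TUBB4B with the mitotic score ranged from 0.424 to 0.612 over the settings. The number of tubulin genes at 0.4 or above was 2 rather than 1 with a filter of 50 CPM (TUBB at 0.405), with exonic reads (TUBB at 0.476), with Pearson r (TUBA1C at 0.452) and, an alternative added after the data were seen, without the cells of highest and lowest intronic share (TUBB at 0.432). The TUBB share of beta barcodes was 75.5% by reads and 53.9% per kilobase, and that of TUBB4B 18.6% and 36.05%. The level of TUBB per kilobase was 379 by reads and 386 by the transcript of the longest open reading frame. Cells and aliquots share replicate numbers 1 to 10, but the correlation of same-numbered deviations ran from −0.0434 to 0.046, so the numbers pair nothing, and the fit of cells 1 to 10 with the number as a block called 0 tubulin genes. Depth limits TUBB2A, TUBB2B and TUBA1C, whose median counts per cell were 10.5 or fewer.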
